A study of Rattus norvegicus with 8 samples.

Results

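Iron and haem handling was followed through 9 genes chosen by name: Hmox1, Fth1, Ftl1, Tfrc, Slc11a2, Slc11a1, Slc40a1, Hamp and Ireb2. The arrays carried 15 probes for these 9 genes among 45598 probes. The cells were NR8383, a line of rat alveolar macrophages that came from the lavage of a normal lung, so a single line stands here for the alveolar macrophage. Control cells were kept for 4 h in medium without serum, and NM401 cells had the same medium and time with NM401, a multi-walled carbon nanotube, at 0.17 µg/mL. Per the labels there were 4 biological replicates in each group, each on an array of its own. No genotype or other agent differs between the groups in the labels.

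Alveolar macrophages take up iron from engulfed cells and debris, from transferrin and from particles. Iron freed from haem by haem oxygenase is either packed into ferritin, a hollow shell of heavy and light chains, or sent out of the cell through ferroportin, which the peptide hepcidin removes from the membrane. Ferritin and the transferrin receptor are also set after transcription, by iron regulatory proteins that bind hairpins in their mRNAs, so a transcript level of ferritin is not a level of the protein.

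All values are log2 of the background-subtracted signal of a probe minus the 75th percentile over the non-control spots of that array, and are called levels here. A level therefore tells how a probe stood relative to the bulk of its own array. Differences are NM401 minus control, and the error given is the standard error (SE) from a limma fit to all 21684 probes detected over background on 4 or more of the 8 arrays. A gene was called at a Benjamini-Hochberg adjusted p below 0.05. Between 51.7% and 58.0% of spots were well above background on an array, and no spot was marked as saturated (0 on the 8 arrays). The 75th percentile itself was 1236 ± 224 intensity units in control and 2692 ± 172 in NM401 (SD, n = 4 each, exact permutation p = 0.0286, the lowest value possible with 4 arrays in each group). This is a 2.20-fold rise that the scaling takes out of every level. On the scaled values the 7 spike-in probes that were well above background on all 8 arrays stood lower in NM401 by a median of 2.39 log2 units, so the reference chosen decides what counts as no change. Control arrays and NM401 replicate 1 shared slide 1 while NM401 replicates 2 to 4 were on slide 2, and slide row and group cannot be told apart. Of 14 macrophage markers 11 were well above background on every array, and Marco was not so on any. Single markers moved both ways, with Cd68 (-0.36), Lyz2 (-0.16) and Mrc1 (-0.59) lower and Adgre1 (1.49), Msr1 (1.06), Spi1 (0.56) and Fcgr1a (0.36) higher. Adgre1 was well above background on only 1 control array, against 4 NM401 arrays, so its value starts near the floor. Summed over that list, in which the bright Lyz2 and Cd68 weigh most, the log2 level was 7.20 to 7.27 in control and 7.04 to 7.11 in NM401.

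With NM401, Hmox1 and Hamp were higher, Fth1 and Ftl1 were lower, and Tfrc, Slc11a1, Slc11a2 and Ireb2 did not pass the test. Slc40a1 did not rise well above background on any array and was not tested. The 4 calls among 8 tested genes (2 higher, 2 lower) are a share of 50%, beside 57.3% of all 17444 genes called in either direction, 21.9% higher and 35.4% lower. The median difference of the 8 genes was -0.10, and that of all genes was also -0.10. As a share, the calls in this group are thus near the background of the whole array. Among the 8 tested genes, the 4 called were those whose control and NM401 arrays were fully separated. The untested Slc40a1 was separated too, at background. Such separation was found for 53.2% of all genes (21% with NM401 higher and 32.2% with NM401 lower). At the level of probes, 56.2% of those tested were called.

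**Figure D1:**
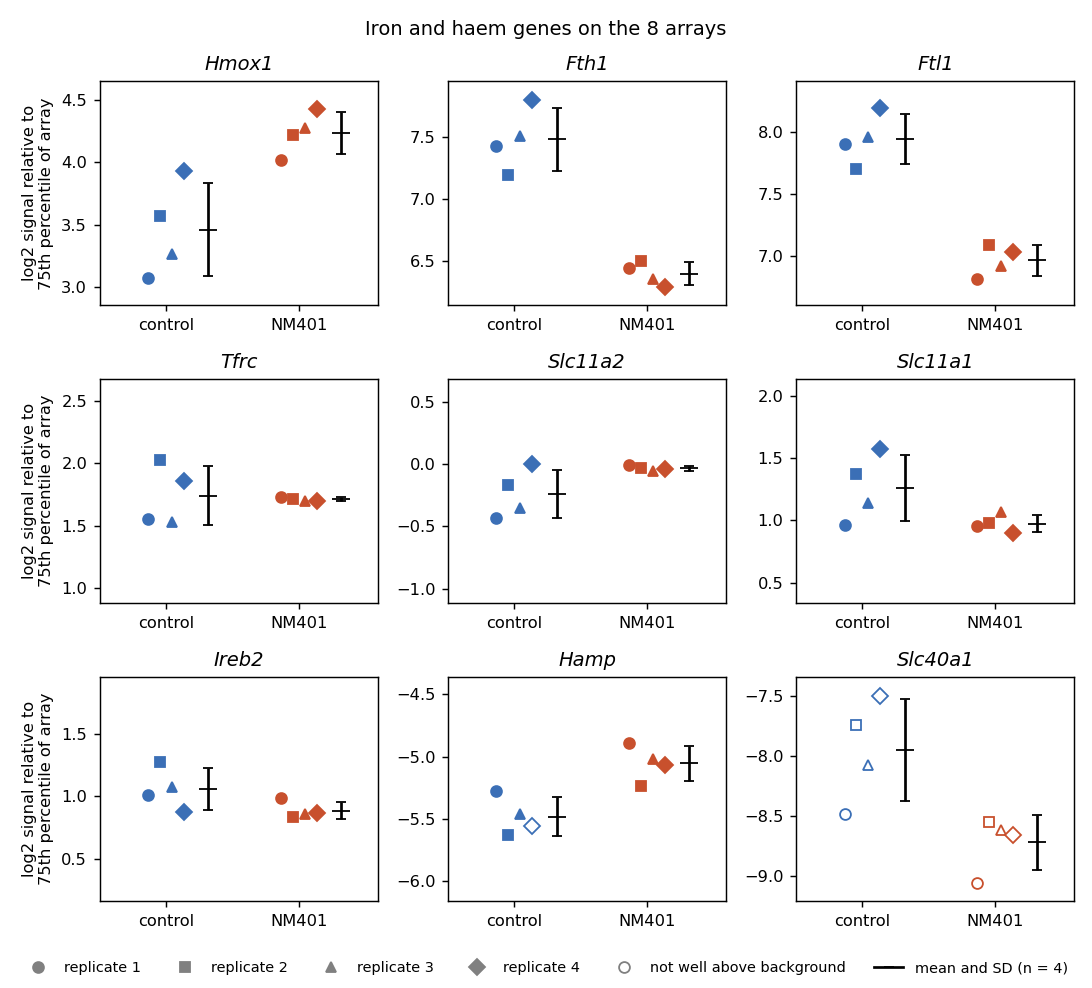
Each panel plots 1 gene on the 4 control and 4 NM401 arrays, as the log2 signal relative to the 75th percentile of the array. Symbols mark replicates, open symbols mark probes not well above background, and the bars to the right of the points give the mean and SD (n = 4). The groups stand apart in Hmox1, Fth1, Ftl1 and Hamp. They also stand apart in Slc40a1, but every point of Slc40a1 is open and the gene was not tested.

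Ferritin is the storage form of iron, and both of its chains were lower relative to the 75th percentile. Fth1 encodes the heavy chain, which oxidises iron as it enters the shell. Its levels were 7.43, 7.19, 7.51 and 7.80 in control replicates 1 to 4 and 6.44, 6.50, 6.35 and 6.29 in NM401 replicates 1 to 4. Every NM401 value lay below every control value. Fth1 fell by 1.09 ± 0.12 (SE, limma adjusted p = 0.00026), from 7.48 ± 0.25 to 6.40 ± 0.09 (SD, n = 4 each), with a 95% interval from -1.37 to -0.80. Within slide 1, which holds NM401 replicate 1 alone, the difference was -1.04 and just missed the call (limma adjusted p = 0.051). A second Fth1 probe gave -1.08 ± 0.10 (limma adjusted p = 0.000113). The probes lie on chromosome 1 of rat build rn4, chr1:212432648-212432709 for the first and chr1:212432641-212432701 for the second. They share a run of 19 bases and then differ, and a window of each is shown because near-identical copies can bind both. The capital letter marks the base at position 20 of the window, counted from its 5′ end, where the first window and the second differ by G20A.
Fth1 first probe: ttttctataagttgcaccaGaacatctgct
Fth1 second probe: ttttctataagttgcaccaAaacatctgct

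Ftl1 encodes the ferritin light chain, which helps the iron core form. Its levels were 7.90, 7.70, 7.96 and 8.19 in control and 6.82, 7.09, 6.92 and 7.04 in NM401, again with no overlap. Ftl1 fell by 0.97 ± 0.11 (SE, limma adjusted p = 0.000254), from 7.94 ± 0.20 to 6.97 ± 0.12 (SD, n = 4 each), with an interval from -1.23 to -0.72. The second probe gave -0.90 ± 0.10 (limma adjusted p = 0.00026). The first probe lies at chr1:95929253-95929312 of rn4. The second is listed on another chromosome, at chr13:86733054-86733113, yet shares 53 bases with the first. RefSeq names 14 pseudogenes of Ftl1 and 5 of Fth1, so signal of such copies cannot be separated from that of the genes themselves. A window of the first probe is shown because it holds the letters AATAAA of a polyadenylation signal, in capitals, which places the probe at the end of a transcript.
Ftl1 first probe: agtcttggaccaagtaaaAATAAAgctttt

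The change of Fth1 minus that of Ftl1 was -0.11 ± 0.08 on the log2 scale (SE, n = 4 arrays per group), with overlapping values (exact permutation p = 0.257, adjusted p = 0.257 over the 5 pairs of genes compared). With these values a difference between the chains was not detected, but after quantile normalisation it was -0.47 and called (exact permutation adjusted p = 0.0357), and with slide as a block its sign turned (0.0822). Without NM401 replicate 1 it was -0.18 (exact permutation adjusted p = 0.0476), and NM401 replicate 1 was the array in which Ftl1 was lowest.

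The fall of ferritin is relative to the rest of the array. Before scaling, the signal of the first Fth1 probe was 226726, 217678, 214300 and 213833 intensity units in control and 250288, 229921, 228270 and 199795 in NM401. Unscaled, it was thus 1.04-fold higher in NM401, with overlapping groups, while the 75th percentile was 2.20-fold higher. The unscaled signal of the first Ftl1 probe was 315582, 309943, 293943 and 280541 in control and 324901, 345573, 339861 and 335128 in NM401, a ratio of 1.12 without overlap. So the ferritin signal stayed nearly level on arrays whose bulk signal rose. On the scaled values the spike-in probes stood at a median of -2.39, below Fth1 (-1.09) and Ftl1 (-0.97). Relative to the spike-ins both ferritin genes would thus be higher in NM401, as would the median of all genes (-0.10). Both genes were among the 134 genes with a mean level of at least 6. The median difference over those 134 bright genes was -0.51, 93.3% of them had a negative difference, and their unscaled signal was 1.55-fold higher by median. Fth1 and Ftl1 nevertheless stood near the low end of the bright genes, with 2 of the 134 lower than Fth1 and 7 lower than Ftl1. After quantile normalisation, which sets whole distributions equal, the bright genes had a median of -0.05. Fth1 then stood at -0.52 and was still called, while Ftl1 stood at -0.05 and was not called (limma adjusted p = 0.615). The part of signal level in the ferritin difference was not tested. The genes whose levels over the 8 arrays were most like those of Fth1 included Krtap1-5 (Pearson r = 0.996) and Rpl37l1 (r = 0.996), given as a description over arrays that share the scaling.

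**Figure D2:**
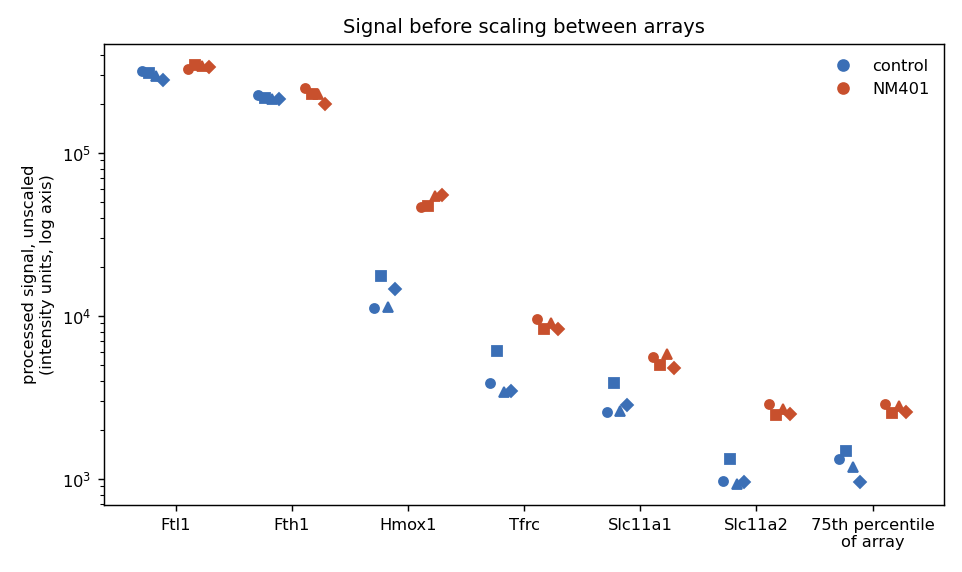
The unscaled processed signal in intensity units, on a log axis, is plotted for 6 genes and for the 75th percentile of each array, with 1 point per array, control in blue and NM401 in orange. The points of Fth1 overlap between groups. The 75th percentile and the points of Hmox1, Tfrc, Slc11a1 and Slc11a2 lie higher in NM401. Those of Ftl1 also lie higher without overlap, by a ratio of 1.12.

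Hmox1 encodes haem oxygenase 1, the inducible enzyme that opens the haem ring and frees its iron. Its levels were 3.08, 3.57, 3.27 and 3.93 in control and 4.02, 4.22, 4.28 and 4.43 in NM401. The groups did not overlap, although control replicate 4 came close to NM401 replicate 1. Hmox1 rose by 0.78 ± 0.18 (SE, limma adjusted p = 0.00725), which is 1.72-fold, from 3.46 ± 0.37 to 4.24 ± 0.17 (SD, n = 4 each), with an interval from 0.36 to 1.20. Of all genes, 3.98% had a higher difference. Unscaled, its signal ran from 11103 to 17657 intensity units in control and from 46687 to 55107 in NM401, a 3.78-fold difference. Fitted within slide 1, or with the slide as a block, the difference was 0.56 and was not called (limma adjusted p = 0.278 and 0.174). Both of those fits rest on NM401 replicate 1 alone. The probe lies at chr19:13969336-13969395 of rn4, on the strand listed as plus, and is shown because its letters read the end of the coding sequence, where the enzyme is anchored in the membrane. No letters are marked.
Hmox1 probe: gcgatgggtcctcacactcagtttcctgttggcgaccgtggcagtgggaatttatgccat

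Set against each other on the same arrays, haem oxygenase and ferritin parted. The change of Hmox1 minus that of Fth1 was 1.86 ± 0.21 on the log2 scale (SE, n = 4 arrays per group, exact permutation p = 0.0286, adjusted p = 0.0357), with no overlap between groups. Such a difference within an array does not depend on the percentile used to scale it, and it was called after quantile normalisation too. Every NM401 array lay above every control array for Hmox1 and below every control array for Fth1. The separation of their difference and its exact p were thereby fixed, and they add no support beyond the single genes. The difference shows unequal change and does not show which of the genes moved.

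Tfrc encodes the transferrin receptor, the main entry of transferrin-bound iron. Its levels were 1.56, 2.02, 1.53 and 1.85 in control and 1.73, 1.72, 1.70 and 1.70 in NM401. The NM401 values lay inside the control range and close together. The difference was -0.03 ± 0.11 (SE, limma adjusted p = 0.835), with an interval from -0.29 to 0.23, and its sign turned with median scaling (0.17) and quantile normalisation (0.03). The change of Tfrc minus that of Fth1 was 1.06 ± 0.20 (SE, n = 4 arrays per group, exact permutation p = 0.0286, adjusted p = 0.0357), and after quantile normalisation it was 0.55 (exact permutation adjusted p = 0.0571). In iron-poor cells textbook regulation raises the receptor mRNA and holds back the translation of ferritin, the second of which an array does not measure. The probe lies at chr11:69976628-69976687 of rn4.

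Slc11a2 and Slc11a1 encode DMT1 and NRAMP1, related metal transporters of which the first moves iron out of endosomes in most cells and the second acts on the phagosomes of macrophages. The levels of Slc11a1 were 0.97, 1.37, 1.14 and 1.57 in control and 0.96, 0.98, 1.07 and 0.90 in NM401. Control replicate 1 lay inside the NM401 range. The difference of Slc11a1 was -0.29 ± 0.13 (SE, limma adjusted p = 0.0825, interval from -0.57 to 0.00), and without control replicate 1 it was -0.38 and called (limma adjusted p = 0.0211). Slc11a2 was spread from -0.43 to 0.00 in control and from -0.05 to -0.01 in NM401, so that control replicate 4 lay above every NM401 value and the other controls below. The difference of Slc11a2 was 0.21 ± 0.09 (SE, limma adjusted p = 0.0913, interval from -0.01 to 0.42), and without control replicate 4 it was 0.28 and called (limma adjusted p = 0.0138). With median scaling Slc11a2 was 0.41 and called (limma adjusted p = 0.00446). A second Slc11a2 probe of the same 60 bases gave 0.16 ± 0.13, and the same sequence thus read 0.01 to 0.14 log2 units apart on an array.

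Neither transporter passed on its own, but their differences ran in opposite directions. The change of Slc11a1 minus that of Slc11a2 was -0.49 ± 0.06 (SE, n = 4 arrays per group, exact permutation p = 0.0286, adjusted p = 0.0357), with no overlap between groups. The control arrays that were high in one transporter were high in the other, so the spread of the pair (SD 0.08 in both groups) was smaller than that of either gene in control. The probe of Slc11a2 lies at chr7:139094505-139094564 of rn4. That of Slc11a1 is listed over chr9:73723371-73723827, a span of 457 bases for 60 letters, which places it across a splice junction. It is printed because a probe of this kind reads spliced transcripts, with no letters marked.
Slc11a1 probe: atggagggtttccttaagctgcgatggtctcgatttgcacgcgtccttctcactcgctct

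Slc40a1 encodes ferroportin, the only known exporter of iron from cells. Its first probe had levels of -8.48, -7.75, -8.08 and -7.50 in control and -9.05, -8.55, -8.62 and -8.66 in NM401, and its second ran from -8.51 to -7.73 and from -9.06 to -8.53. Neither probe was well above background on any of the 8 arrays, so no difference or fold is given. The probes lie at chr9:44977923-44977982 and chr9:44978571-44978630 of rn4, and a ferroportin transcript that does not reach them would be missed.

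Hamp encodes hepcidin, the peptide hormone that closes ferroportin and is made mostly by the liver. Its levels were -5.27, -5.63, -5.46 and -5.56 in control and -4.89, -5.24, -5.02 and -5.06 in NM401, without overlap, and the probe was well above background on all arrays but control replicate 4. Hamp rose by 0.43 ± 0.10 (SE, limma adjusted p = 0.00746), which is 1.34-fold, from -5.48 ± 0.15 to -5.05 ± 0.14 (SD, n = 4 each). This rise rests on the way the background was subtracted. With normexp background correction the difference was -0.35 and called lower (limma adjusted p = 0.0026), and with the deposited values without background subtraction it was -0.17 (limma adjusted p = 0.145). Within slide 1 it was 0.59 and not called (limma adjusted p = 0.0712). The signal behind it was 20 to 34 intensity units in control and 67 to 97 in NM401, on arrays whose 75th percentile averaged 1236 and 2692. Of 6 hepatocyte markers 5 were not well above background on any array, and none (0 of 6) was so on all 8. Summed over those 6 markers, the log2 level was -5.42 to -5.06 in control and -5.73 to -4.88 in NM401. The probe lies at chr1:85978236-85978295 of rn4.

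Ireb2 encodes iron regulatory protein 2, which binds the iron-responsive hairpins and is degraded when iron is plentiful. Its brightest probe had levels of 1.01, 1.28, 1.08 and 0.87 in control and 0.99, 0.84, 0.86 and 0.86 in NM401, with overlap through control replicate 4. The difference was -0.17 ± 0.09 (SE, limma adjusted p = 0.128, interval from -0.38 to 0.03), and without control replicate 4 it was -0.24 and called (limma adjusted p = 0.0414). The other Ireb2 probes gave 0.23 ± 0.09 (limma adjusted p = 0.0518) at chr8:58476082-58476141 and -0.00289 ± 0.05 (limma adjusted p = 0.966) at chr8:58477731-58477791, against chr8:58479548-58479607 for the brightest, so the 3 probes did not share a sign. Only the first of these has an accession that RefSeq names Ireb2, and the others carry the name that the files give. Aco1, the sister protein IRP1 that doubles as cytosolic aconitase, fell by 0.52 ± 0.05 (SE, limma adjusted p = 0.000135). The change of Ireb2 minus that of Aco1 was 0.34 ± 0.10 (SE, n = 4 arrays per group, exact permutation p = 0.0286, adjusted p = 0.0357). Without NM401 replicate 2, 3 or 4 in turn, the 4 pairs called over all arrays missed the threshold (exact permutation adjusted p = 0.0714). Without NM401 replicate 1, Tfrc minus Fth1 and Ireb2 minus Aco1 missed it (exact permutation adjusted p = 0.0571).

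**Figure D3:**
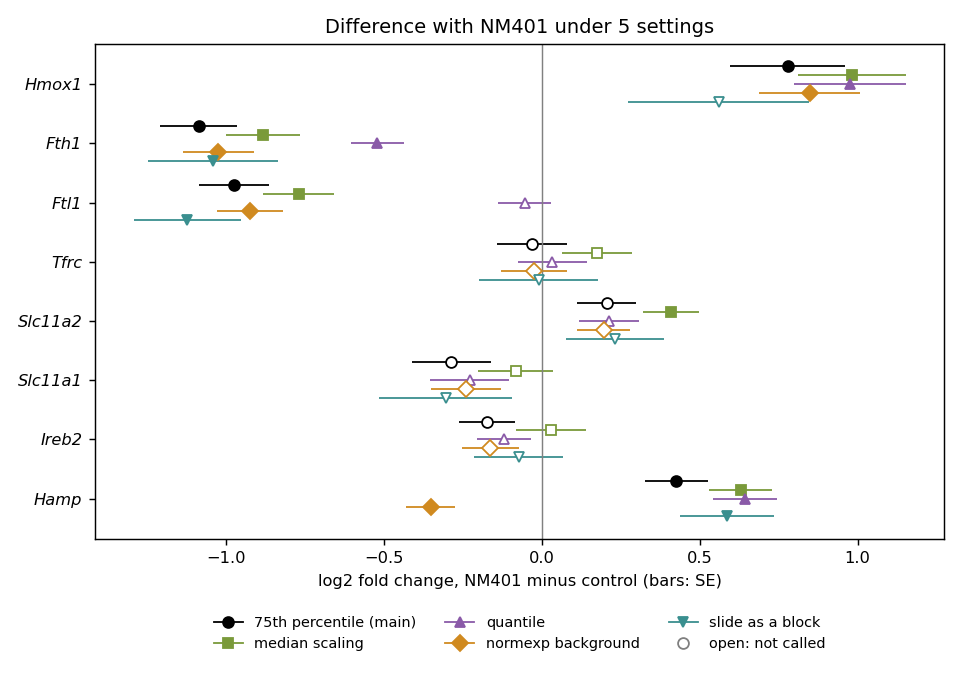
The log2 difference of each tested gene, NM401 minus control, is plotted under 5 settings with SE bars, filled where called and open where not. Fth1 keeps its side of 0 and its call in all of them, Ftl1 comes to -0.05 after quantile normalisation, Hmox1 loses its call with slide as a block, and Hamp turns to -0.35 with normexp.

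The genes around these members were read from 9 lists of the pathway. Over the lists, 102 genes were tested, of which 21 were higher, 35 lower and 46 not called, a share of 54.9% called beside 57.3% of all genes. Their median difference was -0.07. The split of directions followed the scaling, with 39 higher and 15 lower after median scaling. That scaling moves the median of all genes from -0.10 to 0.11. Over all 17444 genes, 3823 were higher and 6178 lower as scaled here, and 6113 and 3360 with median scaling. After quantile normalisation the counts over all genes were 4776 higher and 4873 lower, and with normexp 2741 and 9406. The counts of each list under a setting stand beside these. Directions in the lists below are therefore relative to the 75th percentile, and for a gene given by value any change of its call with median scaling, quantile normalisation or normexp is named.

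Of 10 genes of iron regulatory proteins and their control 2 were higher, 2 lower and 6 not called (median -0.13), with 4 higher and 1 lower after median scaling and 3 and 1 after quantile normalisation. Fbxl5, the ligase subunit that senses iron and marks IRP2 for degradation, rose by 0.75 ± 0.07, and Cul1, the scaffold of that ligase, rose by 0.38 ± 0.08. Ciao3, of the cytosolic iron-sulphur assembly, was at -0.19 ± 0.05 and lost its call with median scaling, quantile normalisation and normexp. Among 3 tested genes whose mRNAs carry an iron-responsive element, Cdc42bpa rose by 0.59 ± 0.09, and Cdc14a was at -0.05 ± 0.15 and was not called (-0.45 and called lower with normexp).

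Of 11 genes of iron uptake and traffic 2 were higher, 6 lower and 3 not called (median -0.26), with 3 higher and 3 lower after median scaling and 1 and 6 with normexp. The zinc and iron transporter genes Slc39a8 and Slc39a14 rose by 0.55 ± 0.06 and 0.54 ± 0.07, of which Slc39a14 stood at 0.00 with normexp and lost its call. Pcbp2, a chaperone that hands iron to other proteins, fell by 0.83 ± 0.10, and Slc22a17, a lipocalin receptor, by 0.59 ± 0.06. Of 11 genes of export and systemic control 1 was higher, 5 lower and 5 not called (median -0.28), with 2 higher and 5 lower after median scaling and 0 and 8 with normexp. Of genes that carry signals to hepcidin, Smad1 fell by 0.59 ± 0.06, Smad5 by 0.57 ± 0.07 and Stat3 by 0.52 ± 0.07, while Smad4 (-0.03) and the receptor gene Acvr1 (-0.28) were not called and were called lower only with normexp. Furin, which cleaves the hepcidin precursor, fell by 0.77 ± 0.14. The lowest difference of the list was that of Tmprss6, a protease that holds hepcidin down, which fell by 2.52 ± 0.71 (SE, limma adjusted p = 0.0164) with overlapping groups. Smad4, Acvr1 and Tmprss6 are named after their values were seen.

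Of 12 haem synthesis genes 1 was higher, 6 lower and 5 not called (median -0.21). Cpox rose by 0.42 ± 0.05, though it was at 0.10 and not called with normexp, and Alad, at the start of the pathway, fell by 0.42 ± 0.06. Tmem14c and Urod were at -0.39 ± 0.06 and -0.36 ± 0.06, and neither was called with median scaling, after which 3 genes of this list were higher and 1 lower. Of 10 genes of haem uptake, export and degradation 1 was higher, 0 lower and 9 not called (median -0.02), and 3 were higher and 0 lower with median scaling and after quantile normalisation. In it the haem-binding Pgrmc1 rose by 0.25 ± 0.09 (limma adjusted p = 0.048, not called with normexp). Hmox2, the constitutive haem oxygenase, was at -0.10 ± 0.05 (limma adjusted p = 0.118), the haem exporter Flvcr1 at 0.28 ± 0.11 (limma adjusted p = 0.0534, called higher with median scaling and after quantile normalisation) and Por, which passes electrons to haem oxygenase, at -0.17 ± 0.07 (limma adjusted p = 0.0634). Blvra, the biliverdin reductase gene, named after its values were seen, was at 0.13 and was called higher with median scaling (0.33), quantile normalisation (0.21) and normexp (0.23). Of 27 genes of mitochondrial iron and iron-sulphur clusters 6 were higher, 12 lower and 9 not called (median -0.11), and 10 were higher and 4 lower with median scaling. Fdx2, which feeds electrons to cluster assembly, rose by 0.67 ± 0.06 and Isca2 by 0.43 ± 0.06, whereas Iba57 fell by 0.80 ± 0.10 and the cytosolic scaffold Nubp2 by 0.54 ± 0.07.

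A list of genes linked to the control of Hmox1 or ferritin transcription was also read, and not every gene in it acts on both. Of its 9 tested genes 4 were higher, 0 lower and 5 not called (median 0.26). With median scaling 8 were higher and 0 lower, after quantile normalisation 6 and 0, and with normexp 4 and 1. Atf4, the factor of the integrated stress response, rose by 0.58 ± 0.06, Nfe2l1 by 0.42 ± 0.07, Maff by 0.38 ± 0.08 (0.01 and not called with normexp) and Keap1, which holds NRF2 in check, by 0.26 ± 0.06. Nfe2l2, the gene of NRF2, was at 0.09 and Bach1, a haem-sensing repressor of Hmox1, at -0.24, neither called, although Nfe2l2 was called higher with median scaling (0.29) and Bach1 lower with normexp (-0.47). Of 9 other NRF2 target genes 3 were higher, 3 lower and 3 not called (median 0.07). Srxn1, a repair enzyme of peroxiredoxins, rose by 0.82 ± 0.05, and Osgin1 by 0.82 ± 0.11, of which Osgin1 stood at 0.17 with normexp and lost its call. Txn1 fell by 0.71 ± 0.05, but after quantile normalisation it stood at -0.09 and was not called. Targets of NRF2 thus lay on both sides, as Hmox1 and ferritin did, and after quantile normalisation 4 of the 9 were higher and 0 lower, and 5 and 1 with median scaling.

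**Figure D4:**
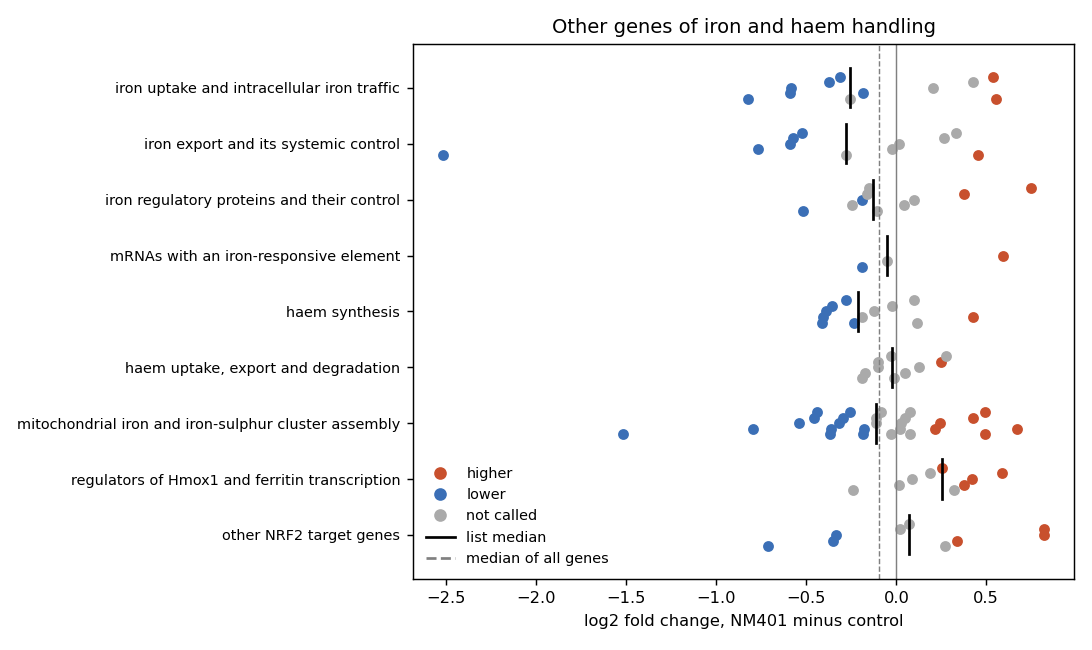
Each point is 1 tested gene of a list, placed by its log2 difference, NM401 minus control, and coloured orange where called higher, blue where called lower and grey where not called. Black bars mark list medians and the dashed line the median of all genes, -0.10. The list medians run from -0.28 for export and systemic control to 0.26 for the regulators of Hmox1 or ferritin.

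Markers of red cell precursors, a source of haem genes, were also read. Of 9 such markers 2 (Hba-a1 and Klf1) were well above background on all arrays, and Alas2, Gata1 and Rhag were not so on any. The summed log2 level of the list was -1.45 to -0.90 in control and -1.41 to -1.14 in NM401, overlapping between groups. Of the detected pair, Klf1 fell by 0.61 (limma adjusted p = 0.0471) and Hba-a1, which weighs most in the sum, was at -0.08 and not called.

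Markers of other cells also differed between the groups. The summed log2 level of 7 fibroblast and endothelial markers was 1.42 to 1.83 in control and 1.35 to 1.39 in NM401. That of 6 lymphocyte markers was -1.45 to -1.14 in control and -2.38 to -1.77 in NM401. That of 6 neutrophil markers was -1.10 to -0.61 in control and -1.64 to -1.19 in NM401. None of these 3 sums overlapped between groups, and all were lower in NM401, as was the macrophage sum. Among single genes, 53.2% did not overlap between groups, 32.2% with NM401 lower. The brightest marker weighs most in each sum. It was Cd4 (-1.06, called lower) for lymphocytes, Camp (-0.49, called lower) for neutrophils and Vwf (-0.30, not called) for fibroblasts and endothelium. Of the other tested markers, Cd3d (-0.79) of lymphocytes and Col1a2 (-1.20) and Cdh5 (-1.15) of fibroblasts and endothelium were called lower. Pecam1 (-0.09) was not called. S100a8 and Mpo of neutrophils were also called lower. Mpo was well above background on 4 control and 0 NM401 arrays, and S100a8 on 3 and 1. Cd3e and Cd8a of lymphocytes, S100a9, Elane and Csf3r of neutrophils, and Col1a1, Col3a1 and Pdgfra of fibroblasts stayed at background on all arrays. The sum of 9 alveolar and airway epithelial markers overlapped between groups, at -3.24 to -2.88 in control and -3.08 to -2.45 in NM401. Ager, the 1 marker of that list well above background on all arrays, rose by 0.99 (limma adjusted p = 0.000119). The part of such markers in the differences of the iron and haem genes was not tested.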

How the data were processed

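The authors deposited 1 scanner file per array with spot intensity values from Agilent Feature Extraction 11.0.1.1, background-subtracted and not scaled between arrays, per the file headers. The deposited series table held the median intensity of the same spots. Spots marked as outliers were dropped, replicate spots were averaged as log2 values, 47 probes with all spots marked on some array were dropped, and each array was scaled to its 75th percentile. A gene was represented by its brightest tested probe. Probes were named through RefSeq (assembly GRCr8, names only, 21109 of 45598 probes matched), otherwise by the name in the files, and positions are those of rn4 in the files. Groups were compared with limma 3.58.1 (two-sided, lmFit then eBayes, no covariate) in R 4.3.3, adjusted over all tested probes. The code was tested on simulated data. Pairs of genes were compared by exact permutation over 70 splits, two-sided, and adjusted over 5 pairs. Slc40a1 minus Tfrc was planned and not run, since Slc40a1 was not tested. In each list the genes with the smallest p are named, up to 4, and Nfe2l2 and Bach1 were added after their values were seen. A few genes named by these rules are not reported here. The genes and lists were chosen with earlier results of these data known. Whether the replicates were separate cultures is not given beyond the word biological, so p-values measure the spread between these samples. Alternatives were other scalings, background corrections, dim-probe filters, a mean over the probes of a gene, slide and replicate blocks, and leaving out each replicate.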

Additional observations from a re-analysis of the deposited data

How the results depend on the processing

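Over the alternatives, with NM401 minus control on the log2 scale, Fth1 kept its direction, and its call except within slide 1 (-1.04, limma adjusted p = 0.051). Ftl1 lost its call after quantile normalisation (-0.0531), Hmox1 with slide as a block (0.56) and within slide 1 (0.56), and Hamp within slide 1 (0.59). Hamp turned with the deposited series values (-0.17) and normexp (-0.35), and the filter on all 8 arrays gave no value for it. Tfrc turned with median scaling (0.17) and quantile normalisation (0.0338), and Ireb2 with the mean of its probes (0.0165) and median scaling (0.0302). Slc11a2 was called with median scaling (0.41). The cause of these shifts was not tested.

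Leaving out 1 replicate at a time gave 0.65 to 0.94 for Hmox1, -1.18 to -0.98 for Fth1, -1.05 to -0.89 for Ftl1 and 0.37 to 0.50 for Hamp, all called. It gave -0.10 to 0.0643 for Tfrc (0.0643 without control replicate 2 and 0.00817 without control replicate 4), -0.24 to -0.10 for Ireb2, -0.38 to -0.18 for Slc11a1 and 0.14 to 0.28 for Slc11a2. Pair changes ran from 0.98 to 1.25 for Tfrc minus Fth1, 1.75 to 2.00 for Hmox1 minus Fth1, -0.53 to -0.47 for Slc11a1 minus Slc11a2, 0.26 to 0.42 for Ireb2 minus Aco1 and -0.18 to -0.0542 for Fth1 minus Ftl1, and the first 4 missed the threshold without some NM401 replicates (exact permutation adjusted p up to 0.0714). Tfrc minus Fth1 also missed it after quantile normalisation (0.55). Fth1 minus Ftl1 was -0.47 and called after quantile normalisation, and 0.0822 with slide as a block and within slide 1.

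Over all genes, 3823 higher and 6178 lower calls became 6113 and 3360 with median scaling, 2216 and 3525 with slide as a block and 755 and 1361 within slide 1, and normexp gave 9406 lower. Leaving out a replicate gave 3271 to 3704 higher and 5410 to 6145 lower. In the pathway lists, 21 higher and 35 lower became 39 and 15 with median scaling and 5 and 3 within slide 1, with 23 lower with slide as a block, and 18 to 21 and 29 to 33 when a replicate was left out.

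Same-numbered arrays did not deviate together (correlations from -0.07 to 0.19), so the numbers were not taken to pair samples. With the replicate block Hmox1 stood at 0.78 (limma adjusted p = 0.00469), Fth1 at -1.09, Ftl1 at -0.97 and Hamp at 0.43, and no call of the tested genes of iron and haem handling changed. With 4 arrays per group, differences such as those of Slc11a2 and Ireb2 were near the limit of what could be called, and the signal of Slc40a1 over background set no difference at all.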
